A study of Mus musculus with 4 samples.

Results

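The genes described here are 6 transcripts used as markers of alternatively activated macrophages: Retnla, Chil3, Arg1, Ear2, Lyz1 and Il4ra. They were taken by symbol, 6 of the 32285 genes counted, and their unique molecular identifiers (UMIs, 1 per captured transcript) were followed by library and by subsets of myeloid cells that were gated on UMIs of other genes. The single-cell libraries came from mouse brown adipose tissue (BAT), and in it from the stromal vascular fraction (SVF), the cells left after digestion once floating adipocytes are removed. The question was how macrophages of BAT differ between lean and obese or diabetic mice. All 4 libraries carry the strain label C57BL6/J and each is 1 group: WT mice at 10 weeks, mice with the db/db genotype at 8 weeks (db/db 8w in the plots) and at 16 weeks (db/db 16w there), and HFD mice, labelled with an age of 10 weeks. The db/db mice are mutant in the leptin receptor gene in every cell. By the study's methods the HFD mice were WT mice on a high-fat diet that began at the labelled age. Their age at sampling would then be higher than the label, and it is not settled. By the same methods each library pooled the SVF of several male mice, so genotype, age and library cannot be told apart.

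Interleukin 4 (IL-4) and IL-13, released by innate lymphoid cells, T cells, eosinophils, mast cells and basophils, bind receptors that share the chain encoded by Il4ra. The bound receptor activates the transcription factor STAT6, and macrophages then make a set of secreted and metabolic proteins. Of these, Retnla encodes the resistin-like molecule alpha, Chil3 the chitinase-like protein Ym1 and Arg1 the arginase that turns arginine into ornithine and urea. Ear2 encodes a secreted ribonuclease of the eosinophil-associated family, and Lyz1 a lysozyme that cleaves bacterial cell walls. In lean adipose tissue such macrophages lie along vessels and between adipocytes, and in obesity lipid-associated macrophages, which carry Trem2, Cd9 and Lpl, gather around dying adipocytes.

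The libraries held 6517 to 18306 barcodes and 28504069 to 61828295 UMIs, of which 5462 to 11648 cells per library passed the limits on genes, UMIs and mitochondrial share. Some properties of the libraries stand beside every value below. Where 4 values stand without names below, their order is WT, 8-week db/db, 16-week db/db and HFD, and 3 ratios to WT follow the last 3 of these. In HFD 68.5% of barcodes exceeded the mitochondrial limit, against 1.04% in 16-week db/db. In 16-week db/db the female transcript Xist stood at 206.6 CPM (UMIs of a gene per 1000000 UMIs) against 0.187 to 0.689 CPM in the other 3 libraries, and the summed Y-linked genes at 17.7 CPM against 164.5 to 187.8 CPM, although the study describes male mice. Pairs of libraries shared 16 to 97 barcodes. Cells with a UMI of at least 4 of 10 pan-myeloid genes (such as Tyrobp, Csf1r and Adgre1) formed the myeloid gate: 1387 cells in WT, 4169 in 8-week db/db, 2822 in 16-week db/db and 2525 in HFD, with median depths of 4615 to 5989 UMIs. Within it, cells with C1q and other macrophage genes were placed in a lipid-associated gate (8 genes, among them Trem2, Cd9, Gpnmb and Spp1) or a perivascular gate (8 genes, among them Lyve1, Folr2, Cd163 and F13a1) by the list of which more genes were seen. The lipid-associated gate held 9.88% of myeloid-gated cells in WT, 46.3% in 8-week db/db, 67.5% in 16-week db/db and 76.8% in HFD, and the perivascular gate held 75.3%, 33.1%, 8.68% and 1.39%. Only 35 HFD cells were in the perivascular gate. Other cells that make these transcripts were scarce among myeloid-gated cells: the 7 alveolar macrophage markers summed to 5.24 to 50.8 CPM, the 6 eosinophil markers to 1.80 to 26.3 CPM and the 6 mast cell and basophil markers to 0.150 to 30.8 CPM. Summed stromal markers reached 1303 to 6700 CPM there and endothelial markers 6.03 CPM in WT but 560 CPM in HFD. The part of such foreign RNA in the values below was not tested beyond an alternative that left out cells with 2% or more of it.

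The genes lie on 5 chromosomes of GRCm38 and each is protein coding. Retnla (ENSMUSG00000061100) is at chr16:48842551-48844461 on the plus strand, Chil3 (ENSMUSG00000040809) at chr3:106147554-106167564 on the minus strand and Arg1 (ENSMUSG00000019987) at chr10:24915221-24927484 on the minus strand. Ear2 (ENSMUSG00000072596) is at chr14:44102654-44103534 on the plus strand, Lyz1 (ENSMUSG00000069515) at chr10:117287797-117292868 on the minus strand, next to its paralog Lyz2, and Il4ra (ENSMUSG00000030748) at chr7:125552120-125579474 on the plus strand. RefSeq promoter windows of 300 bases, 250 before and 50 after the start in GRCm38.p6, were found for 5 of the 6 members (not Arg1) and searched on both strands for TTCNNNNGAA, the spacing that STAT6 prefers, TTCNNNGAA, the spacing of other STAT factors, and TATAAA. The windows of Retnla and Chil3 each hold 1 STAT-type match and are printed for that reason, with the match in capitals. The Retnla window is chr16:48842359-48842658 on the plus strand and the Chil3 window chr3:106167515-106167814 on the minus strand.
Retnla: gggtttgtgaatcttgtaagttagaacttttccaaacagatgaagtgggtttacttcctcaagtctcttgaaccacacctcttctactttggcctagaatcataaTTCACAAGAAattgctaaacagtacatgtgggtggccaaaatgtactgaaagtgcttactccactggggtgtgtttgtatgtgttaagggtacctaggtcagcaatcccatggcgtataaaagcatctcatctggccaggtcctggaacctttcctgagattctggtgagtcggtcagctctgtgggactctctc
Chil3: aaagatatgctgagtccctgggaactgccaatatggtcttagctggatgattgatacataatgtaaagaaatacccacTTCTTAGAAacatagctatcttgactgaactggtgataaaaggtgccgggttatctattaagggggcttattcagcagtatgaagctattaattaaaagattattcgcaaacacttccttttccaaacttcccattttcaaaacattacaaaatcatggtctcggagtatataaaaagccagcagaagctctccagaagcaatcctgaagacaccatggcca
Positions are counted from the start that RefSeq gives, which follows the first 250 bases of each window. For Chil3 it is the start of the gene as given above, and for Retnla it lies inside that gene. In Retnla the match TTCACAAGAA begins 145 bases before the start and a TATAAA lies 30 bases before it, within the gene as given above. In Chil3 the match TTCTTAGAA has the shorter spacing and begins 172 bases before the start, with a TATAAA 3 bases before it. The 10-letter motif occurs in 6.95% of all 32851 promoter windows, the 9-letter motif in 8.30% and TATAAA in 13.6%, so each match alone is common. The windows of Il4ra, Lyz1 and Ear2 hold none of the 3 motifs, which says only that these letters are not in those windows.

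The ligands were near the limit of detection. Over all cells Il4 had 10 UMIs in WT, 1 in 8-week db/db, 3 in 16-week db/db and 0 in HFD, which allows up to 0.0920 CPM (3 UMIs, the limit used here for every count of 0), and Il13 had 25, 51, 0 and 3. The counts are too low to order the libraries. Il33, the alarmin that drives type 2 innate lymphoid cells, stood in stromal-gated cells at 61.5 CPM in WT, 22.8 in 8-week db/db, 12.2 in 16-week db/db and 36.7 in HFD.

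The receptor chain Il4ra was at a low level in all libraries. In myeloid-gated cells it stood at 64.6 CPM in WT (95% interval 59.8 to 69.8, from 654 UMIs), 58.6 CPM in 8-week db/db (55.6 to 61.7), 25.1 CPM in 16-week db/db (22.9 to 27.4) and 22.4 CPM in HFD (20.2 to 24.6). These and all later intervals cover counting error only, since no group has a second library, and no difference between groups was tested. The WT and 8-week db/db intervals overlap, as do those of 16-week db/db and HFD, and the pairs lie apart. Against WT the level was 0.907-fold in 8-week db/db (0.826 to 0.996), 2.58-fold lower in 16-week db/db (2.29 to 2.90) and 2.89-fold lower in HFD (2.55 to 3.28).

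Il4ra was not a myeloid transcript in particular. Myeloid-gated cells held 36.0% of its UMIs in WT, 65.9% in 8-week db/db, 47.9% in 16-week db/db and 38.0% in HFD, and in 16-week db/db endothelial-gated cells held another 34.0%, at 210 CPM. The perivascular gate stood above the lipid-associated gate, at 68.7 CPM in WT, 109 in 8-week db/db, 54.0 in 16-week db/db and 25.2 in HFD. The lipid-associated gate stood at 38.4, 33.4, 23.6 and 20.1 CPM in that order. In HFD the perivascular interval (6.87 to 64.5, from 4 UMIs) takes in the lipid-associated value. The other macrophages stood at 76.1, 90.8, 42.7 and 14.3 CPM, so in WT they were not below the perivascular gate. Within the perivascular gate the level in 8-week db/db was 1.59-fold that in WT (1.41 to 1.79), while over all myeloid-gated cells it was slightly below. With the subsets weighted by their WT shares of UMIs, Il4ra came to 91.4 CPM in 8-week db/db, 45.7 in 16-week db/db and 24.7 in HFD, against 64.6 in WT, and only HFD was then past 2-fold.

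Other genes of the pathway were past 2-fold in 16-week db/db only. Of 12 other genes of IL-4 and IL-13 signalling counted, 7 passed the filter of a mean of 10 CPM over the 4 libraries. Past 2-fold against WT (on a log2 scale with 10 CPM added, the call used throughout) were 0 in 8-week db/db, 2 in 16-week db/db, both lower, and 0 in HFD, where 4.55%, 28.9% and 11.8% of all genes tested were past 2-fold in either direction. The share in 16-week db/db is thus that of all genes. The median log2 ratio of the list was -0.07, -0.75 and -0.11, against 0.03, -0.11 and 0.14 over all genes. Il2rg, the common gamma chain that pairs with Il4ra, had log2 ratios of -0.73, -1.43 and -0.80, Il13ra1, its other partner, -0.33, -0.69 and -0.77, and Cish, a feedback inhibitor, 0.23, -1.10 and -0.33. Stat6 itself stood at 62.8, 59.3, 35.6 and 62.6 CPM.

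Retnla was the most abundant member in every library and differed most from WT in 16-week db/db and HFD. In myeloid-gated cells it stood at 12334 CPM in WT (12265 to 12402), 5442 CPM in 8-week db/db (5413 to 5471), 204 CPM in 16-week db/db (198 to 210) and 1443 CPM in HFD (1426 to 1461). No interval overlaps another. WT was highest and 16-week db/db lowest, and against WT the level was 2.27-fold lower in 8-week db/db, 60.5-fold lower in 16-week db/db (58.6 to 62.4) and 8.55-fold lower in HFD (8.43 to 8.66). Counted by UMIs at the transcript's 3′ end, which do not scale with gene length, Retnla ranked as gene number 4 of myeloid-gated cells in WT, 15 in 8-week db/db, 676 in 16-week db/db and 99 in HFD.

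A Retnla UMI was seen in 91.6% of myeloid-gated cells in WT, 77.2% in 8-week db/db, 6.84% in 16-week db/db and 40.2% in HFD. The part of free RNA or doublets in these shares was not tested. Stromal-gated cells also held a Retnla UMI, in 57.1%, 48.2%, 0.514% and 21.1% of cells at median depths of 6642, 2855, 2707 and 5020 UMIs. Their summed Retnla level was far lower, at 155, 284, 1.44 and 44.4 CPM. After each cell was thinned to 1000 UMIs, the share of myeloid-gated cells with a Retnla UMI was 79.9% in WT, 59.6% in 8-week db/db, 4.36% in 16-week db/db and 20.2% in HFD, against 15.5%, 18.7%, 0.191% and 5.31% of stromal-gated cells.

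**Figure D1:**
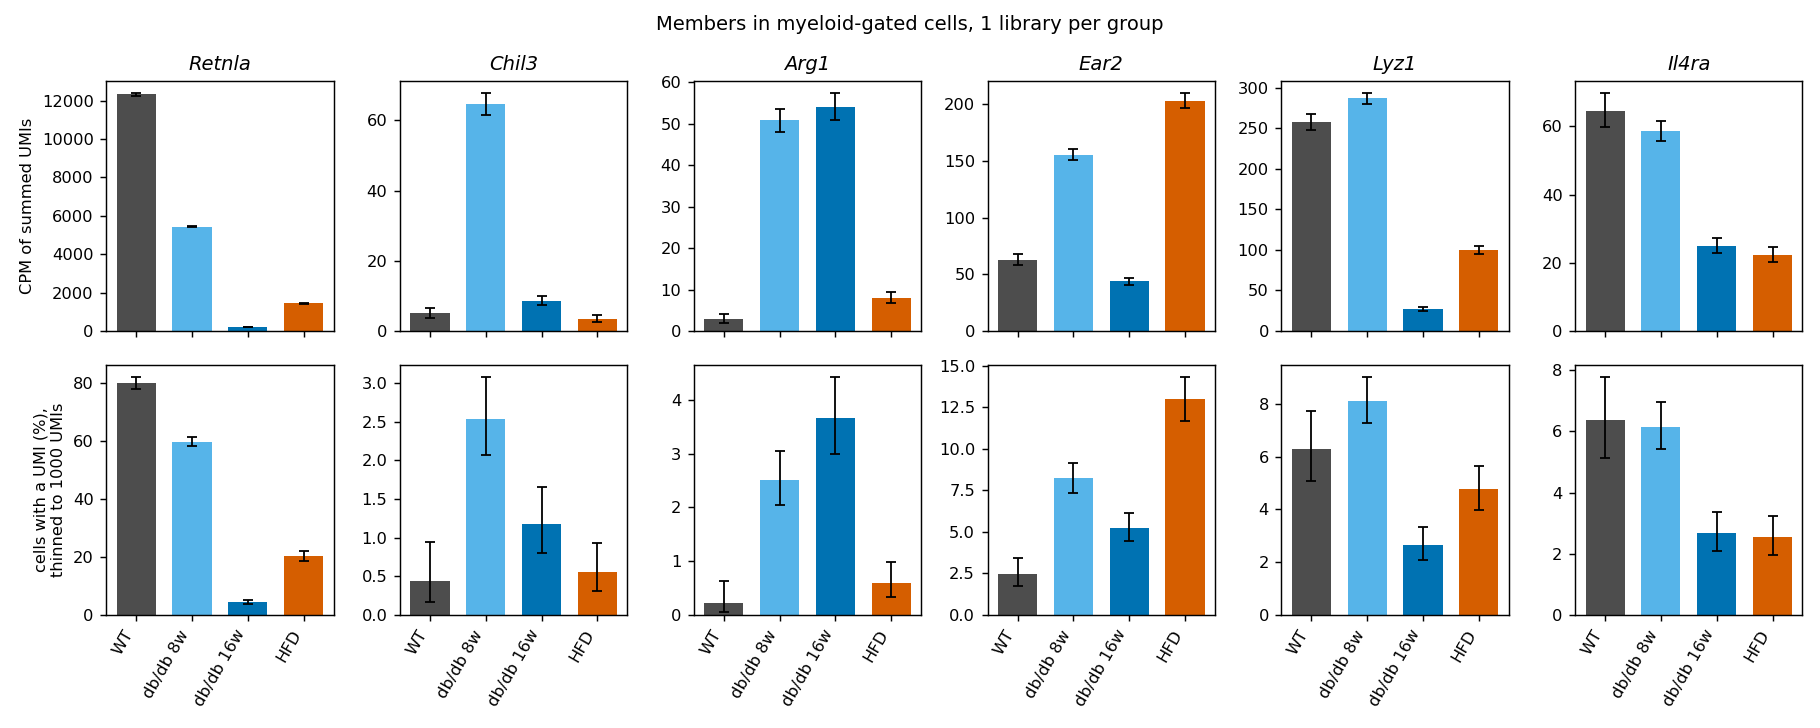
Levels of the 6 members in myeloid-gated cells as CPM of summed UMIs (upper panels) and percent of cells with a UMI after thinning to 1000 UMIs (lower panels), 1 bar per library with exact 95% counting intervals. Retnla is highest in WT at 12334 CPM and lowest in 16-week db/db at 204 CPM, Chil3 stands out in 8-week db/db at 64.6 CPM, and Arg1 is high in both db/db libraries.

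The share of cells with no Retnla UMI at 1000 UMIs was 20.1% in WT, 40.3% in 8-week db/db, 95.6% in 16-week db/db and 79.8% in HFD. At 1000 UMIs a myeloid-gated cell held a median of 10 Retnla UMIs in WT, 1 in 8-week db/db and 0 in 16-week db/db and HFD. At least 30 UMIs were held by 13.5% of cells in WT, 5.18% in 8-week db/db, 0.147% in 16-week db/db and 1.19% in HFD. High cells thus remained in every library: the highest held 116 UMIs in WT and in 8-week db/db, 54 in 16-week db/db and 66 in HFD.

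By level Retnla was highest among macrophages in the perivascular gate, except in HFD, where the 34 other macrophages were higher. In WT 79.5% of its UMIs were in perivascular-gated cells, in 8-week db/db 52.0%, in 16-week db/db 47.5% and in HFD 1.59%, where the lipid-associated gate held 77.7%. Of all UMIs in HFD the perivascular gate held 0.487% and the lipid-associated gate 45.4%. The perivascular gate stood at 15086 CPM in WT and 11505 in 8-week db/db (0.763-fold, 0.756 to 0.770). It stood at 2310 CPM in 16-week db/db (6.53-fold lower) and 2685 in HFD (5.62-fold lower). The lipid-associated gate stood at 6596, 2881, 107 and 1409 CPM, that is 0.437-fold, 61.9-fold lower and 4.68-fold lower against WT. In 8-week db/db the level within the perivascular gate was thus nearer to WT than the sum was, while its share of cells was less than that of WT. With WT shares of the subsets, Retnla came to 9121 CPM in 8-week db/db, 1617 in 16-week db/db and 2346 in HFD, which left log2 ratios of -0.43, -2.92 and -2.39 in place of -1.18, -5.85 and -3.09. In 16-week db/db and HFD it thus stayed past 2-fold lower and in 8-week db/db it did not. The value for HFD rests on 35 perivascular-gated cells. Not every gate of HFD was below WT: the other macrophages stood at 3881 CPM (34 cells) against 3675 in WT, the remaining myeloid cells at 2356 against 1194 CPM (28 cells in WT) and the classical monocytes at 661 against 218 CPM (15 cells in WT).

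**Figure D2:**
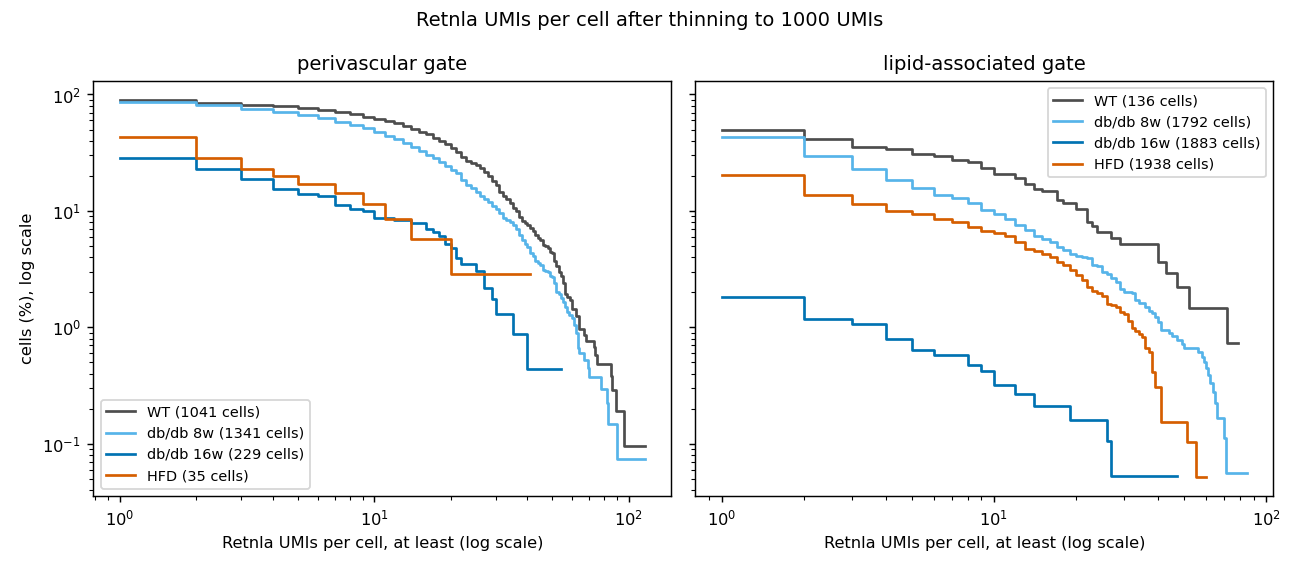
Percent of cells (vertical, log scale) with at least a given number of Retnla UMIs (horizontal, log scale) after thinning to 1000 UMIs, in the perivascular and the lipid-associated gate, 1 line per library. In the perivascular gate WT and 8-week db/db run close together, with 62.2% and 47.7% of cells at 10 UMIs or more, while 16-week db/db has 8.73%; in the lipid-associated gate the same share is 20.6% in WT and 0.319% in 16-week db/db.

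In the perivascular gate of WT, 96.0% of cells held a Retnla UMI and in that of 16-week db/db 35.5%. The lipid-associated gate of WT held only 137 cells and can take in cells that carry a few of its broader genes. With a narrower gate of Trem2, Gpnmb, Spp1 and Lgals3, chosen after the values were seen, its Retnla level was 2468 CPM in WT (32 cells), 1168 in 8-week db/db, 64.5 in 16-week db/db and 1021 in HFD. The order of the libraries stayed, and the distance from WT was smaller in each.

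The sex-linked transcripts of 16-week db/db allowed a look within that library. Among its macrophages and monocytes, 1032 cells with Xist and no Y-linked UMI held Retnla at 291 CPM, and 164 cells with a Y-linked UMI and no Xist at 75.7 CPM. Both are far below the 11793 CPM of WT cells with a Y-linked UMI. The subsets were not matched between these sets of cells, and the part of sex was not tested. Arg1 stood at 69.4 and 31.8 CPM in these 16-week db/db cells, and Ear2, Lyz1 and Il4ra at 35.7 and 35.2, 23.1 and 25.7, and 26.5 and 24.3 CPM.

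Cells with a Retnla UMI differed from those without in the same library. Among gated macrophages and monocytes, thinned alike, the summed perivascular list was higher in cells with Retnla by log2 1.40 in WT, 1.77 in 8-week db/db, 2.45 in 16-week db/db and 0.35 in HFD. The 5 genes with the largest smallest ratio over the 4 libraries were Ccl24 (0.92), an eosinophil attractant that IL-4 induces, F13a1 (0.66), a gene of the perivascular gate, Fgfr1 (0.63), Tgfbi (0.57) and the ficolin Fcna (0.53). In WT, Fcna stood at 1241 CPM in cells with Retnla and 207 CPM in those without. Summed MHC class II genes were lower with Retnla in WT and 8-week db/db (log2 -1.20 and -0.36) and higher in 16-week db/db and HFD (0.51 and 0.62). Over 24 points (library by myeloid subset, of at least 30 cells, which share libraries and depth), the genes most like Retnla by Pearson's r were Trim26 (0.909), Ago3 (0.897), Lars2 (0.884), N4bp1 (0.874) and Klf6 (0.874), of 8086 genes compared.

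By level Chil3 was low in 3 libraries and stood out in 8-week db/db. In myeloid-gated cells it stood at 5.04 CPM in WT (3.75 to 6.63, from 51 UMIs), 64.6 CPM in 8-week db/db (61.5 to 67.8, from 1622 UMIs), 8.62 CPM in 16-week db/db (7.38 to 10.0) and 3.49 CPM in HFD (2.68 to 4.46). The 8-week db/db interval lies above the others, while those of WT and HFD overlap. Against WT the level was 12.8-fold in 8-week db/db (9.70 to 17.3), 1.71-fold in 16-week db/db (1.24 to 2.39) and 0.692-fold in HFD (0.471 to 1.02), and from 8-week db/db to 16-week db/db it was 7.49-fold lower.

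Few cells held the transcript. After thinning, Chil3 was found in 0.434% of myeloid-gated cells in WT, 2.54% in 8-week db/db, 1.17% in 16-week db/db and 0.555% in HFD, and stromal-gated cells of 8-week db/db held it in 0.545%. At full depth a Chil3 UMI was seen in 4.87% of myeloid-gated cells in 8-week db/db and 5.17% in 16-week db/db. The share was 1.37% in WT and 1.31% in HFD. In 8-week db/db 1 cell carried 249 Chil3 UMIs, while in 16-week db/db the highest myeloid-gated cell carried 3. By gate the classical monocytes were highest in every library, at 69.6 CPM in WT (15 cells), 808 in 8-week db/db, 125 in 16-week db/db (25 cells) and 146 in HFD. The neutrophil gate of 8-week db/db followed with 445 CPM. Because lipid-associated cells are many, 55.2% of the Chil3 UMIs of 8-week db/db nevertheless lay in that gate, at 68.4 CPM, whereas in HFD 65.1% lay in the 61 classical monocytes and 15.9% in the lipid-associated gate, at 0.675 CPM.

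In 8-week db/db, the only library with at least 30 macrophages and monocytes of each kind, 80 thinned cells with Chil3 were set against the rest. The summed classical monocyte list was higher in them by log2 2.38, while the perivascular list (-1.23) and the MHC class II genes (-1.06) were lower. The most enriched genes were Arg1 (2.84), at 838 against 30.7 CPM, Thbs1 (2.63), Fn1 (2.18), Slpi (2.09), a secreted protease inhibitor, and Plac8 (2.06), which belongs to the monocyte gate. Arg1 was found in 26.3% of cells with Chil3 (17.0 to 37.3) and in 1.73% of those without. Across the 24 points the genes most like Chil3 were Slpi (r = 0.868), Col12a1, Sgms2, Trem1 and Thbs1 (0.834).

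Arg1 was high in both db/db libraries and low in the other pair. In myeloid-gated cells it stood at 2.96 CPM in WT (2 to 4.23, from 30 UMIs), 50.8 CPM in 8-week db/db (48 to 53.6), 54.1 CPM in 16-week db/db (50.9 to 57.4) and 8.08 CPM in HFD (6.82 to 9.50). The intervals of 8-week db/db and 16-week db/db overlap and their ratio was 1.07 (0.981 to 1.16). Against WT the level was 17.1-fold in 8-week db/db (11.9 to 25.5), 18.2-fold in 16-week db/db (12.7 to 27.2) and 2.73-fold in HFD (1.83 to 4.18), which on the scale with 10 CPM added did not pass 2-fold. Thinned to 1000 UMIs, 0.217% of myeloid-gated cells in WT, 2.51% in 8-week db/db, 3.66% in 16-week db/db and 0.594% in HFD held an Arg1 UMI, against 0.164%, 0.448%, 0.0954% and 0% of stromal-gated cells, where the 0 allows up to 0.169%.

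Within the lipid-associated gate Arg1 stood at 7.98 CPM in WT, 65.1 in 8-week db/db, 57.6 in 16-week db/db and 9.39 in HFD. In every library the gate held more of the Arg1 UMIs than of all UMIs: 9.91% against 3.06% in WT, 62.6% against 27.0% in 8-week db/db, 81.4% against 59.3% in 16-week db/db and 90.8% against 45.4% in HFD. HFD had the largest lipid-associated share of cells and within the gate an Arg1 level 1.18-fold that of WT, which with 11 UMIs in WT has an interval of 0.638 to 2.41. The spread over cells differed between the db/db libraries, with 10.1% of the gate's cells and up to 128 UMIs in 1 cell in 8-week db/db, and 16.0% and up to 29 UMIs in 16-week db/db. In the perivascular gate the level was 2.46, 23.0, 12.9 and 0 CPM (0 of 158689 UMIs in HFD, which allows up to 18.9 CPM). With the narrower lipid-associated gate it was 2.27, 29.2, 47.6 and 3.85 CPM, so the low perivascular value of 16-week db/db depended on the gate.

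Macrophages and monocytes with Arg1 in the db/db libraries were compared with those without. The genes enriched in both were Adam8 (smallest log2 0.96), a surface protease, Spp1 (0.91) and Cd9 (0.76), which belong to the lipid-associated gate, Anxa2 (0.85) and Adssl1 (0.63). Summed MHC class II genes were lower in cells with Arg1, by log2 -0.93 in 8-week db/db and -1.70 in 16-week db/db, and the perivascular list by -1.44 and -0.35. Over the 24 points the genes most like Arg1 were BC031181 (r = 0.788), Tyrobp (0.769), Cap1, Gde1 and Clec4d (0.745).

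In WT most Arg1 UMIs were not myeloid: 27.0% of 111 UMIs were in myeloid-gated cells and 52.3% in stromal-gated ones. They gathered in a few cells outside the myeloid gate with UMIs of at least 2 of Gata3, Il1rl1, Il13 and Il5, genes of type 2 innate lymphoid cells. This set, chosen after the values were seen, held 23 cells in WT, 46 in 8-week db/db, 7 in 16-week db/db and 5 in HFD, and 15 of the WT cells had passed the stromal gate. Arg1 was found in 11 of the 23 WT cells (47.8%, 26.8 to 69.4), in 19 of 46 in 8-week db/db (41.3%, 27.0 to 56.8), in 3 of 7 in 16-week db/db and in 0 of 5 in HFD. Among all other non-myeloid cells it was found in 0.265%, 1.32%, 0.732% and 0.205%.

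**Figure D3:**
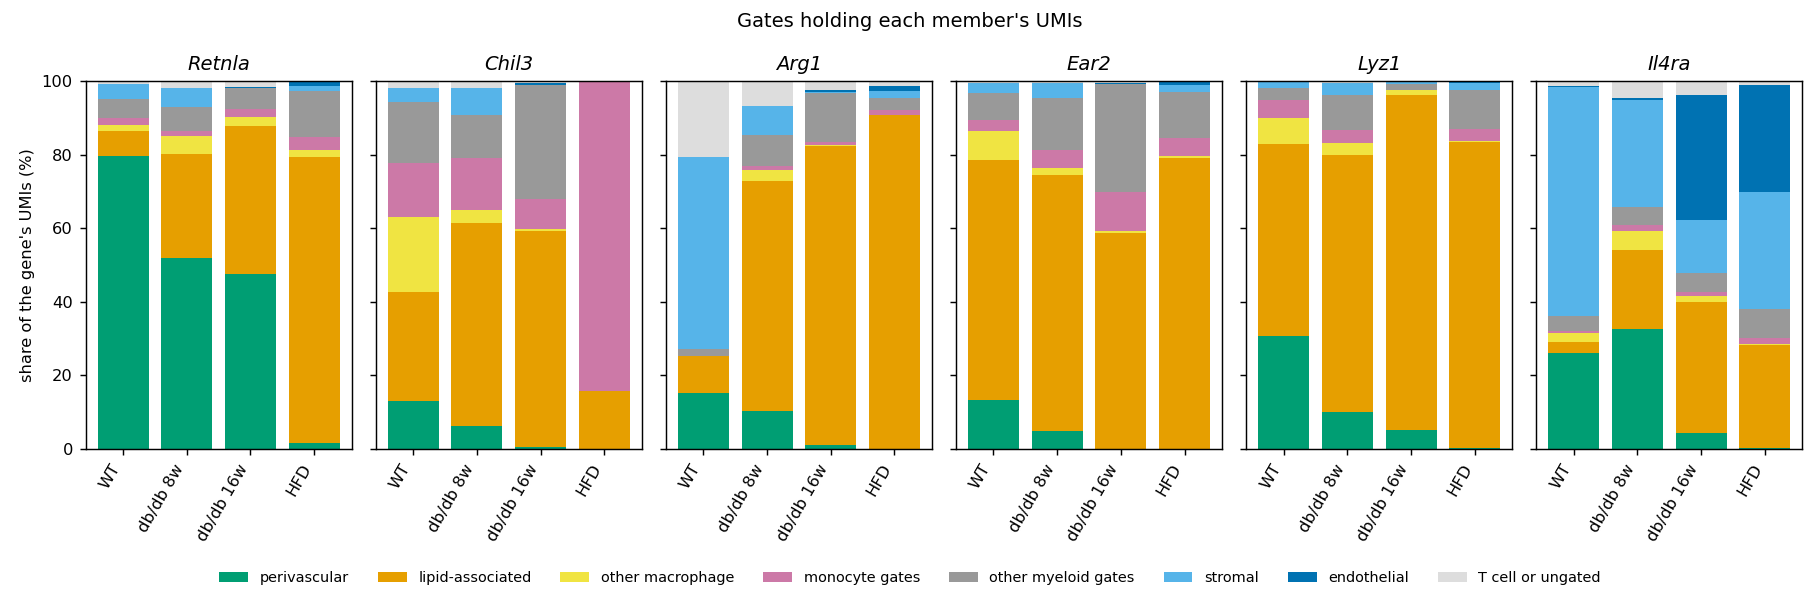
Share of each member's UMIs (vertical, percent) found in each gate, 1 stacked bar per library. Retnla lies mostly in the perivascular gate in WT (79.5%) and in the lipid-associated gate in HFD (77.7%). Arg1 is mostly outside the myeloid gates in WT only (27.0% myeloid), and Il4ra lies in both myeloid and stromal cells in all 4 libraries. Endothelial cells held 34.0% of Il4ra UMIs in 16-week db/db and 29.1% in HFD, against 0.220% in WT and 0.403% in 8-week db/db.

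Of 11 other genes of arginine metabolism counted, 7 passed the filter. Past 2-fold against WT were 2 in 8-week db/db, 3 in 16-week db/db and 2 in HFD, all higher, where 4.55%, 28.9% and 11.8% of all genes were past 2-fold in either direction. The median log2 ratio of the list was 0.35, 0.35 and 0.27, against 0.03, -0.11 and 0.14 over all genes. Odc1, which turns ornithine into putrescine, had log2 ratios of 1.31, 1.41 and 1.18, and the spermine synthase Sms 1.40, 2.34 and 1.16. The spermidine synthase Srm had 0.74, 1.12 and 0.74. Arg1 itself had 2.23, 2.30 and 0.48 on this scale. The paralog Arg2 had 66, 111, 2 and 34 UMIs, and the opposing enzyme Nos2 had 0, 3, 0 and 36.

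Summed Ear2 was above WT in 8-week db/db and HFD and below it in 16-week db/db, though the last direction turned with the weight given to cells and that of HFD when the subsets were weighted by their WT shares. In myeloid-gated cells it stood at 62.9 CPM in WT (58.2 to 68.0), 155 CPM in 8-week db/db (150 to 160), 43.8 CPM in 16-week db/db (41.0 to 46.8) and 203 CPM in HFD (197 to 210). None of these intervals overlap. The level was 2.46-fold that of WT in 8-week db/db (2.27 to 2.68), 0.697-fold in 16-week db/db (0.628 to 0.773) and 3.23-fold in HFD (2.97 to 3.52). By share of thinned cells the order differed, with 2.46% in WT, 8.20% in 8-week db/db, 5.24% in 16-week db/db and 12.96% in HFD, so in 16-week db/db more cells held Ear2 than in WT and each held less, and no direction can be given for that library.

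The levels by gate did not all follow the totals. Most Ear2 UMIs lay in the lipid-associated gate of 8 genes. There WT was highest at 310 CPM, followed by HFD at 202, 8-week db/db at 198 and 16-week db/db at 32.8. HFD and 8-week db/db did not differ beyond counting error (1.02-fold, 0.968 to 1.07), and 16-week db/db was 9.46-fold below WT. Perivascular-gated cells held little, at 12.7 CPM in WT and 29.7 in 8-week db/db, with no UMI in 16-week db/db, which allows up to 3.52 CPM, or in HFD, which allows up to 18.9 CPM. With the narrower lipid-associated gate, the perivascular gate took in more cells and stood at 38.3 CPM in WT, 61.3 in 8-week db/db and 124 in HFD (161 UMIs in 232 cells), with 7 UMIs in 16-week db/db. Nonclassical monocytes were high in the libraries with enough cells, at 418 CPM in 8-week db/db, 290 in 16-week db/db and 334 in HFD, against 64.4 in WT (16 cells, 11 UMIs). With WT shares of the subsets, Ear2 came to 70.6, 15.2 and 56.2 CPM against 62.9 in WT, and the log2 ratio of HFD turned from 1.55 to -0.14. That weighting gives the perivascular and lipid-associated gates most of the weight, and other subsets of HFD stood above WT, such as the other macrophages (207 against 92.0 CPM) and the remaining myeloid cells (323 against 53.1 CPM). With the narrower gate of 4 genes the lipid-associated level was 175, 176, 34.3 and 198 CPM, so WT was then no longer the highest. The lipid-associated gate then held 54, 1437, 459 and 2245 Ear2 UMIs in place of 428, 2850, 517 and 2987. In WT most macrophage Ear2 UMIs then lay outside it, with 304 in the perivascular gate and 210 in the other macrophages.

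Lyz1 had 258 CPM in WT (248 to 268), 287 CPM in 8-week db/db (280 to 293), 27.1 CPM in 16-week db/db (24.9 to 29.5) and 99.9 CPM in HFD (95.3 to 105) in myeloid-gated cells. WT and 8-week db/db were close, at a ratio of 1.11 (1.06 to 1.16), whereas 16-week db/db was 9.50-fold lower than WT (8.66 to 10.5) and HFD 2.58-fold lower (2.43 to 2.74). In the lipid-associated gate the level was 1009 CPM in WT, 363 in 8-week db/db, 31.5 in 16-week db/db and 104 in HFD, that is 2.78-fold, 32.1-fold and 9.71-fold lower. In the perivascular gate it was 118, 112, 32.9 and 25.2 CPM. The larger distance in the lipid-associated gate depended on which genes defined it. With the narrower gate it was 250, 219, 28.2 and 88.3 CPM. In WT the lipid-associated gate then held 77 Lyz1 UMIs in place of 1392, the perivascular gate 1617 in place of 815, at 204 CPM, and the other macrophages 699 in place of 186, at 1130 CPM.

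Lyz1 and Ear2 were often found in the same cells, except in 16-week db/db. After thinning, Lyz1 was seen in 45.2% of WT macrophages and monocytes with Ear2 and in 5.22% of those without, in 26.7% against 6.41% in 8-week db/db and in 11.5% against 3.67% in HFD. In 16-week db/db the shares were 2.27% and 2.99%. Cells with either transcript carried more MHC class II, by log2 1.13, 0.94, 1.08 and 0.59 for Ear2 and 0.91, 0.78, 0.64 and 0.54 for Lyz1, and cells with Ear2 carried less of the perivascular list, by -2.50, -2.20, -3.07 and -1.04. Fn1, encoding fibronectin, led the enriched genes of both, with a smallest log2 ratio of 1.78 for Ear2 and 0.82 for Lyz1. Next came Cytip (0.99), Lsp1 (0.99), Cd52 (0.80) and Unc119 (0.75) for Ear2, and Cd74 (0.54), H2-Aa (0.47), Smpdl3a (0.42) and Lyz2 (0.41) for Lyz1. In HFD Retnla was seen more often in these cells, though most cells with Retnla held no Ear2 (31.1% did) and no Lyz1 (12.6% did). It was found in 47.2% of cells with Ear2 against 16.3% without, and in 54.5% with Lyz1 against 18.8% without.

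**Figure D4:**
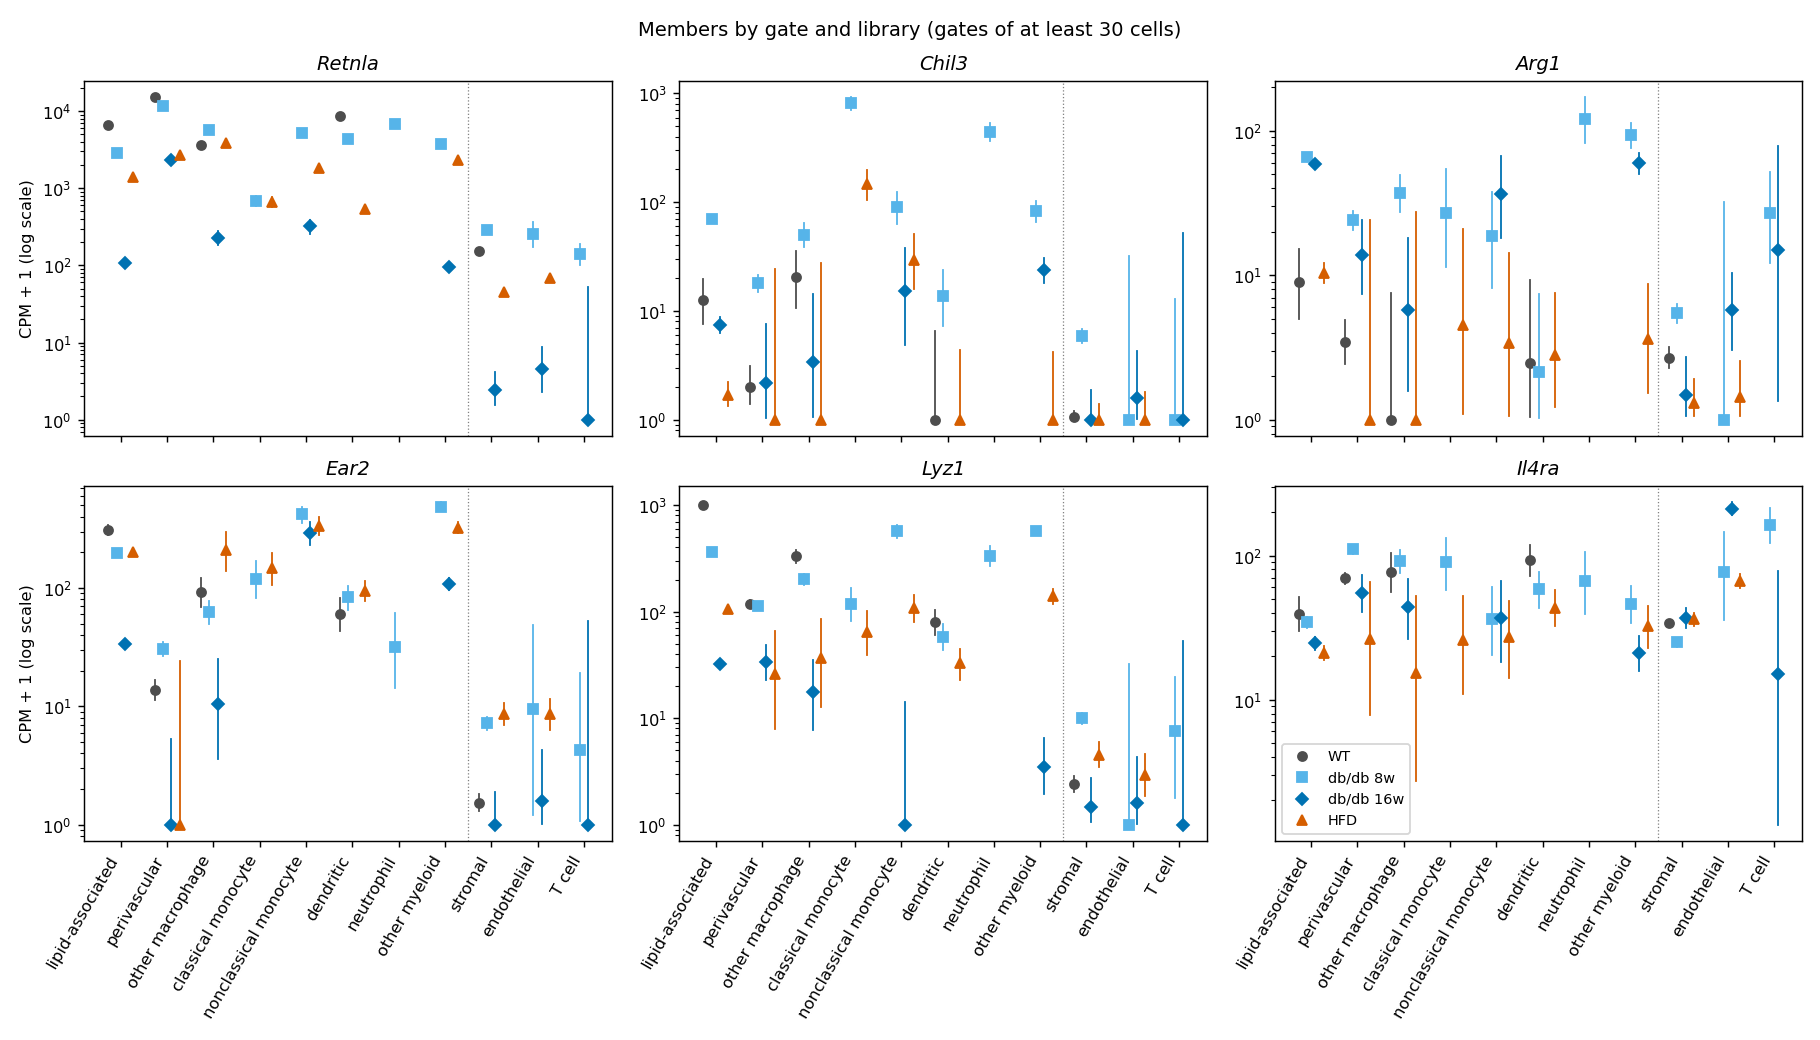
Level of each member as CPM + 1 (vertical, log scale) by gate, 1 symbol per library, with exact 95% counting intervals as lines; gates of under 30 cells are not drawn, and the dotted line parts myeloid gates from the others. Chil3 peaks in classical monocytes of 8-week db/db at 808 CPM, Lyz1 in the lipid-associated gate of WT at 1009 CPM, and Il4ra in 16-week db/db is higher in endothelial-gated cells than in macrophages.

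Over the 24 points the genes most like Ear2 were Itgav (r = 0.862), Mapkapk3, Bhlhe40, Plaur and Stap1 (0.770), those most like Lyz1 Ccrl2 (0.875), Slfn2, Rab20, Il6 and Litaf (0.856), and those most like Il4ra B3gnt2 (0.852), Hsph1, Pfkfb3, Dnajb1 and Hspb1 (0.821). The genes most enriched in cells with an Il4ra UMI were Ccl7 (smallest log2 0.39), Il6st (0.36), Samd4b (0.29), C4b (0.28) and Ier3 (0.28).

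Most relatives of the members were nearly absent, apart from Lyz2. Lyz2, whose sequence is close to that of Lyz1, stood at 5114 CPM in WT, 5757 in 8-week db/db, 4947 in 16-week db/db and 5536 in HFD, so it did not follow Lyz1. Reads of such close copies can be assigned to either gene or dropped, and a small wrongly assigned part of Lyz2 would weigh on Lyz1, so the values of Lyz1, and of Ear2 and Chil3 with their own close copies, carry that doubt. Chil4 had 2 UMIs in 8-week db/db and 0 in the other 3 libraries, Ear1 had 5 in 8-week db/db and 10 in HFD, and Ear10 had 1. Ear6 and Ear14 had none. Retnlg, a neutrophil transcript, stood at 16.3, 38.2, 2.66 and 0.443 CPM.

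Counted together in myeloid-gated cells, 4 of the 6 members were past 2-fold against WT in each comparison. In 8-week db/db Chil3, Arg1 and Ear2 were higher and Retnla lower, where 4.55% of the 7807 genes tested were past 2-fold in either direction. Chil3 passed the filter only through its 64.6 CPM in that library. It stood at 5.04 CPM in WT, 8.62 in 16-week db/db and 3.49 in HFD. Its entry in the count is thus tied to its high level in 8-week db/db. In 16-week db/db Arg1 was higher and Retnla, Lyz1 and Il4ra lower, where the background was 28.9%, so a call there says less. In HFD Ear2 was higher and Retnla, Lyz1 and Il4ra lower, against a background of 11.8%. The median log2 ratio of the members was 0.66, -0.76 and -0.68, and that of all genes 0.03, -0.11 and 0.14. All 3 comparisons use the same WT library, so a chance deviation of that library enters each of them.

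The members did not move as 1 set. In myeloid-gated cells Retnla was past 2-fold lower in all 3 comparisons, Arg1 was higher in both db/db libraries, and Chil3 was higher in 8-week db/db alone, on this scale. In the lipid-associated gate Chil3 and Arg1 were higher and Retnla and Lyz1 lower in 8-week db/db (background 4.75%). There Arg1 was higher and Retnla, Ear2 and Lyz1 lower in 16-week db/db (27.7%), and Retnla, Chil3 and Lyz1 were lower in HFD (11.3%). Chil3 passed the filter in this gate only through the 68.4 CPM of 8-week db/db. It stood there at 11.6 CPM in WT (16 UMIs), 6.47 in 16-week db/db and 0.675 in HFD (10 UMIs), so its calls carry that limit. In the perivascular gate, where Chil3 and Arg1 were below the filter, 0 of 4 members were past 2-fold in 8-week db/db (1.76%), and Retnla, Ear2 and Lyz1 were lower in 16-week db/db (17.3%). Ear2 passed the filter in that gate only through the 29.7 CPM of 8-week db/db, with 0 UMIs in 16-week db/db and HFD. All 4 of these members were called lower in the 35 cells of HFD (18%), with 4 UMIs each of Lyz1 and Il4ra. For Ear2 the 0 UMIs of HFD allow up to 18.9 CPM, above the 12.7 CPM of WT, so a lower level is not shown. With the narrower lipid-associated gate, perivascular Ear2 stood at 124 CPM in HFD against 38.3 in WT, while Retnla, Lyz1 and Il4ra stayed lower.

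Over all cells that passed the limits, the share of myeloid cells enters as well. There Chil3, Arg1, Ear2 and Lyz1 were past 2-fold higher in 8-week db/db (background 5.28%). Chil3 again passed the filter only through that library, at 33.4 CPM against 1.20 in WT, 6.55 in 16-week db/db and 1.93 in HFD. Arg1 was higher and Retnla and Lyz1 were lower in 16-week db/db (28%). In HFD Ear2 was higher and Retnla lower (15.5%). Fewer cells of a type and less RNA per cell cannot be told apart in such sums.

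**Figure D5:**
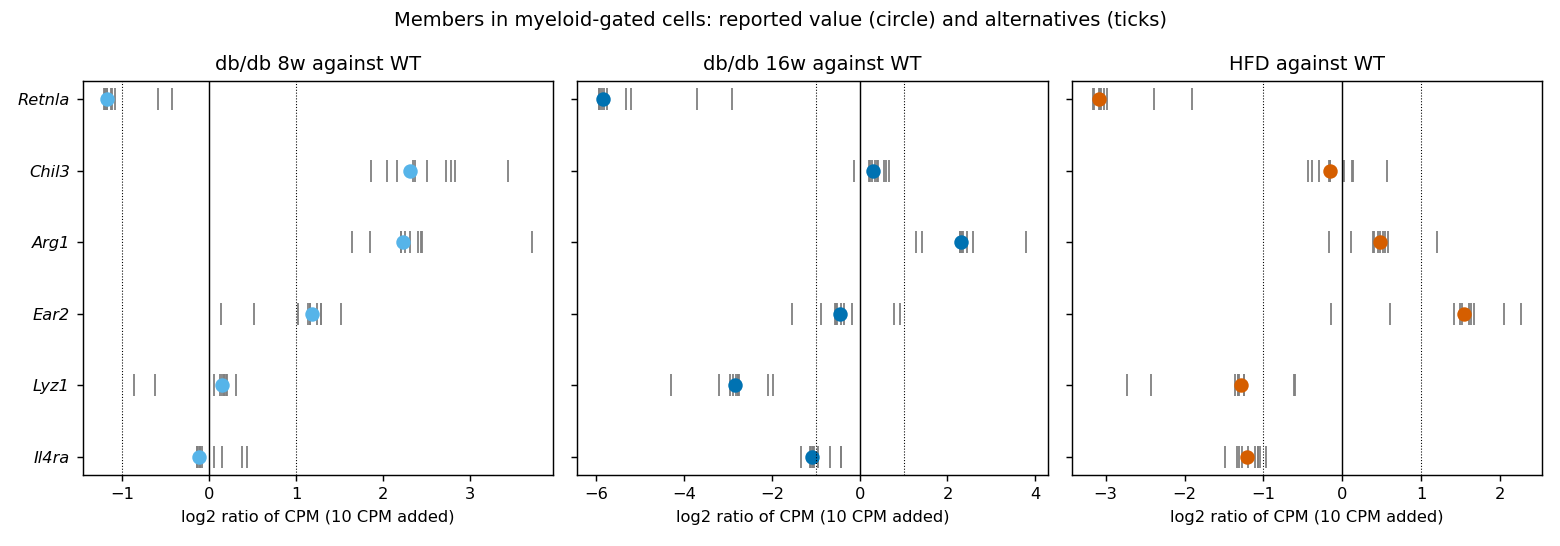
Log2 ratio of each member's level in myeloid-gated cells to WT (horizontal, with 10 CPM added), as reported (circle) and under the alternative settings (ticks, 1 of them with 1 CPM added); dotted lines mark 2-fold. Retnla in 16-week db/db and HFD, and Chil3 and Arg1 in 8-week db/db, stay beyond the dotted line throughout, whereas Ear2 in 16-week db/db has ticks on both sides of 0, from -1.54 to 0.93.

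Other macrophage genes that IL-4 induces gave a similarly uneven picture. Of 19 counted besides the members, 12 passed the filter. In 8-week db/db 2 were past 2-fold higher and 0 lower, in 16-week db/db 1 higher and 9 lower, and in HFD 3 higher and 3 lower, where 4.55%, 28.9% and 11.8% of all genes were past 2-fold in either direction. The median log2 ratio of the list was -0.02, -1.38 and 0.07, against 0.03, -0.11 and 0.14 over all genes. Tgm2, the transglutaminase often used as an alternative activation marker, was past 2-fold higher in all 3 (log2 1.61, 1.27 and 2.18). Ccl24 (-0.83, -3.19 and -2.90) and the lectin Clec10a (-0.74, -1.22 and -3.29) were past 2-fold lower in 16-week db/db and HFD but not in 8-week db/db. Mrc1, the mannose receptor, stood at 859, 693, 258 and 455 CPM. Among the HFD genes past 2-fold is Flt1, which endothelial cells also carry and which stood at 119.5 CPM there against 1.98 in WT, beside the endothelial markers given above.

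Most genes of classical activation were past 2-fold lower in 16-week db/db and HFD. Of 12 counted, 10 passed the filter, and past 2-fold were 0 higher and 2 lower in 8-week db/db, 0 and 8 in 16-week db/db, and 1 and 7 in HFD, where 4.55%, 28.9% and 11.8% of all genes were past 2-fold in either direction. The median log2 ratio of the list was -0.54, -3.48 and -2.01, against 0.03, -0.11 and 0.14 over all genes. Cxcl10 had -1.11, -5.49 and -4.34, Tnf 0.82, -3.59 and -2.24 and Ptgs2 -0.80, -5.16 and -4.20.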

How the data were processed

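SVF cells of BAT were profiled with 10x Genomics 3′ libraries, 1 per group. The deposited matrices hold raw UMI counts, whole numbers that the authors obtained by running Cell Ranger against mm10. The submitters' processing notes name version 7.1.0 and the file headers 6.0.0. The counts hold called barcodes before any quality filter, subsampling or integration, and 0 columns of other samples. Free RNA was not removed, so abundant transcripts can appear in cells that do not make them.

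The limits of the study were applied: more than 250 but fewer than 6000 genes, more than 500 but fewer than 30000 UMIs, and a mitochondrial share below 15%. Cells were gated on the number of distinct marker genes with a UMI: at least 4 of 10 pan-myeloid genes, then at least 3 neutrophil genes or 2 of the dendritic, monocyte or macrophage lists, in that order, and outside the myeloid gate 4 stromal, 3 endothelial or 2 T cell genes. No member is in a gate. UMIs were summed per gate and library and divided by all UMIs of the gate, as CPM. Ratios to WT were called past 2-fold on the log2 scale with 10 CPM added, which understates low genes, among genes with a mean of at least 10 CPM over the 4 libraries. For shares and comparisons of cells with and without a member, each cell was thinned at random to 1000 UMIs and shallower cells were left out (6, 305, 93 and 1 myeloid-gated cells in WT, 8-week db/db, 16-week db/db and HFD), and 100 CPM was added. Intervals are exact Poisson for counts, Clopper-Pearson for shares and conditional binomial for ratios. The limit given beside a count of 0 is that of 3 counts. No doublet caller was run. Doublets were addressed by an alternative that kept cells with under 2% of stromal and endothelial UMIs.

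As no group has a second library, differences were not tested and no p-value is given. The members and gene lists were chosen with earlier results of these data known. The 6 members are always named. Of each pathway list up to 3 genes are named, those with the largest smallest absolute log2 ratio over the 3 comparisons, and others in the text (Il33, Stat6, Mrc1, Flt1 and Nos2) were chosen after their values were seen. For each member the 5 genes most like it by Pearson's r over points of at least 30 cells and the 5 with the largest smallest ratio in its cells are named. Clec7a and Dpep2 could not be matched to 1 gene. Alternatives were the mitochondrial limit, thinning, weight of cells, CPM denominator, pseudocount, filter, threshold, gates and make-up of the gate. A narrower lipid-associated gate, a filter without 16-week db/db, weights by WT shares and the set of Arg1 cells outside the myeloid gate were added after seeing the data. The calculation of calls was tested on simulated data. Python 3.11.15, numpy 2.4.6, scipy 1.17.1, pandas 2.3.3 and matplotlib 3.10.9 were used, with gene positions from GRCm38 and promoters from RefSeq.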

Additional observations from a re-analysis of the deposited data

Results flagged for a closer look

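The fold of Ear2 in myeloid-gated cells against WT lay on opposite sides of 1 between groups, at 2.46 in 8-week db/db and 3.23 in HFD but 0.697 in 16-week db/db. The same held for Lyz1, at 1.11 in 8-week db/db but 0.105 in 16-week db/db and 0.388 in HFD. With 1 library per group neither difference was tested, and the direction of Ear2 in 16-week db/db turned when cells were thinned or weighted equally.

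The remaining results come from barcodes left out of every comparison, those over the mitochondrial limit that passed the myeloid gate (289 in WT, 838 in 8-week db/db, 7 in 16-week db/db and 2820 in HFD). Among them Chil3 stood at 89.2 CPM and Arg1 at 43.8 CPM in 8-week db/db, where WT had no UMI of either. Ear2 stood at 131.7 CPM in HFD against 49.8 CPM in WT. These values were above those of the WT control and were not tested.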

How the results depend on the processing

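Of 59 counts of members past 2-fold under alternatives, 51 stayed within 1.5 times the reported count and 8 moved. In myeloid-gated cells the 4 members of 8-week db/db became 2 under a 4-fold threshold, 2 with subsets weighted equally and 2 with subsets at WT shares, and the 4 of HFD became 1 under a 4-fold threshold and 2 with equal weights. Over all cells a 4-fold threshold left 0 of 4 in 8-week db/db and 1 of 2 in HFD, and 1 CPM in place of 10 gave 5 in place of 3 in 16-week db/db. Of 165 values of called members under alternatives, 164 kept their direction and 150 stayed past 2-fold. The exception in direction was Ear2 in HFD, with a log2 ratio of -0.14 at WT shares of the subsets. Among members not called, Ear2 in 16-week db/db ranged from -1.54 to 0.93 and 6 of 105 values passed 2-fold. Retnla ranged from -1.21 to -0.43 in 8-week db/db, from -5.95 to -2.92 in 16-week db/db and from -3.16 to -1.90 in HFD. Il4ra in 16-week db/db was past 2-fold in 6 of 10 alternatives and Lyz1 in HFD in 8 of 10. The causes were not tested. No paired analysis was possible because each group has 1 library and no result comes from a test. For the same reason no replicate could be left out. Depth limits Chil3 and Arg1 in WT, which rest on 51 and 30 UMIs, and perivascular-gated values in HFD rest on 35 cells.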

Other observations

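In barcodes over the mitochondrial limit Retnla kept its order between WT, 8-week db/db and HFD, at 15829, 6021 and 1344 CPM in myeloid-gated ones. Lyz1 stood at 71.9, 121 and 71.6 CPM and Il4ra at 43.1, 50.3 and 30.5 CPM there, with 7 such barcodes in 16-week db/db.

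In WT and 8-week db/db Retnla was also high outside the macrophage gates. Nonclassical monocyte-gated cells stood at 13600 CPM in WT (16 cells) and 5255 CPM in 8-week db/db, and neutrophil-gated cells at 5273 CPM in WT (18 cells) and 6719 CPM in 8-week db/db, against 218 to 683 CPM in the classical monocyte gate of WT, 8-week db/db and HFD. The nonclassical monocyte gate stood at 319 CPM in 16-week db/db and 1840 CPM in HFD. The neutrophil gate held 0 Retnla UMIs in 5 cells of 16-week db/db, which allows up to 142 CPM, and 2 in 3 cells of HFD. Retnlg, the neutrophil relative, was found in the neutrophil gate at 867 CPM in WT and 3667 CPM in 8-week db/db. The part of doublets and of broad gates in these values was not tested.

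Slc7a2, an arginine transporter that IL-4 induces, and Alox15 were below the filter over the 4 libraries but stood at 22.4 and 24.8 CPM in 8-week db/db, against 3.95 and 5.44 in WT, 5.71 and 1.05 in 16-week db/db, and 2.10 and 0.111 in HFD. Ccl17, a chemokine of alternatively activated and dendritic cells, stood at 0.988, 14.2, 2.41 and 9.52 CPM. These genes, named after their values were seen, were highest in the library in which Chil3 was highest.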
